A study of Mus musculus with 27 samples.

Results

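The genes described here are Vtcn1, Cyp2a4 and Lrp11, 3 of the 51826 genes listed for each library. They were chosen from these libraries because their level after weaning stood away from that of animals that had never been pregnant, so their differences from those animals are given as a description, without a test. All 3 were matched by Ensembl identifier and passed the filter on low counts, which kept 16428 genes. The livers came from wild-type BALB/c mice, an inbred laboratory strain, and each of the 27 libraries was made from 1 whole liver. The groups were 4 nulliparous animals, never pregnant (NUL), 3 at lactation day 10 (LAC), 3, 4, 6 and 3 taken 2, 4, 6 and 8 days after their pups were removed (ID2, ID4, ID6 and ID8, the involution days), and 4 taken 4 weeks after weaning (REG, regressed). Breeding took place at 10 to 12 weeks of age, litters were made even in size, weaning fell between days 10 and 14 of lactation, and the animals were matched for age according to the labels. Every stage consisted of different animals, so no liver was followed over time. The 23 libraries of LAC, the involution days and REG are called parous below.

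Vtcn1 encodes B7-H4, a cell surface protein of the B7 family, whose members engage receptors on T cells and raise or restrain their activity; B7-H4 is known as an inhibitory member and is made by several epithelia, including that of the breast. Cyp2a4 encodes a cytochrome P450 enzyme of the endoplasmic reticulum that hydroxylates steroids, and it is known as a gene expressed more in female than in male mouse liver. Such sex-biased liver genes follow the pattern of growth hormone release, and the Cyp2a genes are also known targets of DBP, a transcription factor whose level swings with the time of day. Lrp11 encodes a membrane protein of the wider lipoprotein receptor-related (Lrp) group, whose better known members take up ligands by endocytosis.

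Estimated counts totalled 41120650 to 75664540 per library. After scaling between libraries (counts scaled to a common library total, CPM), Cyp2a4 was abundant and the other genes were scarce. Per length and library total (TPM), Cyp2a4 reached 904 ± 228 over all libraries (SD, n = 27), against 1.01 ± 0.397 for Vtcn1 and 0.905 ± 0.361 for Lrp11. Vtcn1 rested on 26 to 259 counts in a library and Lrp11 on 71 to 302, so counting error matters for both. Hepatocyte markers were abundant in every library, with a summed level of 95600 to 232000 CPM over all 8 genes of the list. The sum was 103000 to 130000 CPM in NUL, 187000 to 232000 CPM in LAC, without overlap, and 142000 to 157000 CPM in ID2. Stellate cell markers (270 to 325 CPM in NUL, 219 to 220 CPM in LAC), sinusoidal endothelial markers (255 to 294 and 202 to 231 CPM) and macrophage markers lay lower in LAC. So did markers of T and NK cells (1.77 to 2.45 CPM in NUL, 0.502 to 1.09 CPM in LAC), while erythroid markers lay higher there (335 to 712 and 768 to 1020 CPM). The part of these marker levels in the LAC values of Vtcn1, Cyp2a4 and the list genes named below was not tested. In bulk tissue, fewer cells of a type and less RNA per cell cannot be told apart. Animal numbers in the titles lay under 200 for 7 animals (all 3 of ID8, 2 of 3 in ID2 and 2 of 4 in ID4) and at 200 or over for the other 20. The labels do not explain these numbers. No ID8 animal is numbered 200 or over, so the effect of the number range in the fit with that covariate rests on the ID2 and ID4 livers. In that fit ID8 differed from NUL by 1.45 for Vtcn1 and 0.82 for Cyp2a4 on the log2 scale. ID2_31 held 1610 CPM of pancreas markers, and the median of NUL was 21.2 CPM. Without ID2_31 and ID4_15, the ID4 library with most pancreas markers, the Lrp11 difference of ID2 from NUL was 0.83 on the log2 scale and that of Cyp2a4 was 1.23.

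**Figure D1:**
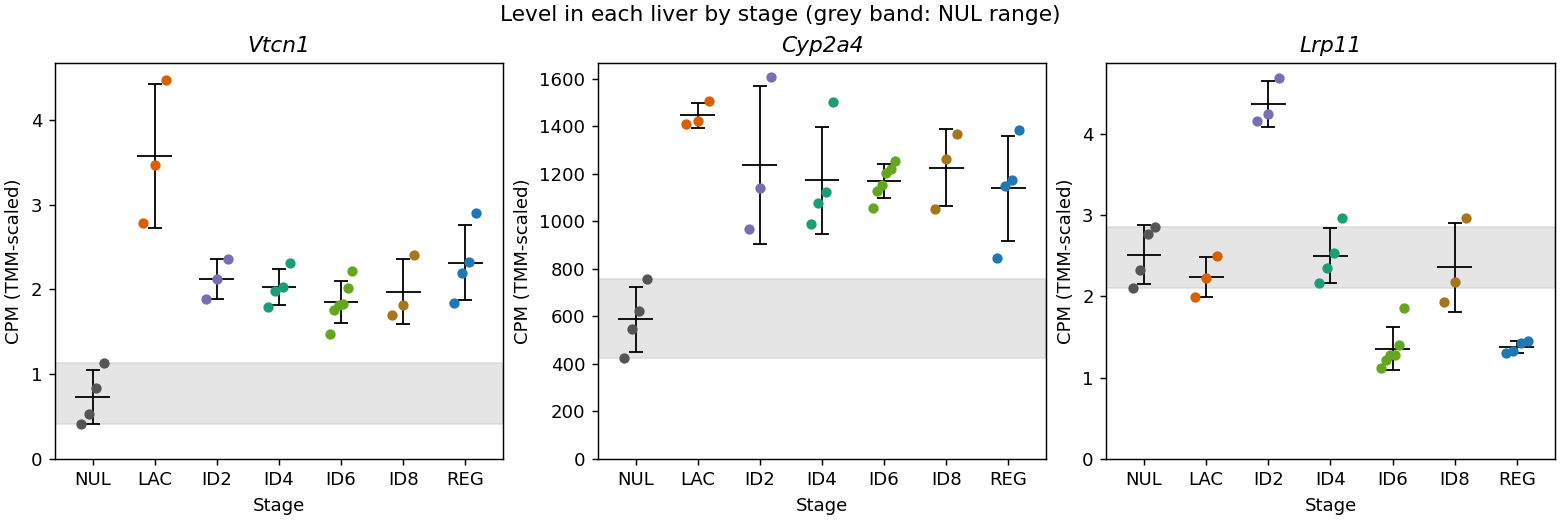
CPM of Vtcn1, Cyp2a4 and Lrp11 in each liver (points) at the 7 stages, with the mean and SD (black lines) and the range of the 4 NUL livers (grey band). All 23 parous livers lie above the band for Vtcn1 and for Cyp2a4, while Lrp11 lies above it in ID2, below it in ID6 and REG, and within or across it elsewhere.

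Vtcn1 was higher in every parous liver than in any nulliparous liver. The gene (ENSMUSG00000051076) lies on chromosome 3, 100825459 to 100896922, plus strand, in GRCm38, with a single annotated transcript of 2622 bases. The 4 NUL livers had 0.414, 0.529, 0.836 and 1.13 CPM. The 3 LAC livers had 2.79, 3.46 and 4.47 CPM, the highest levels of any stage by mean. After weaning the level was lower than in lactation but did not return to the nulliparous range. ID2 livers had 1.89, 2.12 and 2.36 CPM and ID4 livers 1.79, 1.98, 2.02 and 2.31 CPM. ID6 livers ran from 1.48 to 2.22 CPM with a median of 1.82 CPM, and ID8 livers had 1.70, 1.82 and 2.41 CPM. The REG livers, 4 weeks after weaning, had 1.83, 2.19, 2.33 and 2.90 CPM, so their range reached into that of lactation.

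In group means, Vtcn1 in NUL was 0.727 ± 0.322 CPM (SD, n = 4) and in REG 2.31 ± 0.443 CPM (SD, n = 4), a ratio of 3.18. The ratio to NUL was 4.92 in LAC and lay between 2.55 and 2.92 in the 4 involution groups. The fitted log2 difference from NUL was 2.30 (SE 0.24) in LAC, 1.35 (SE 0.22) in ID6 and 1.67 (SE 0.23) in REG. The order of the means was LAC, REG, ID2, ID4, ID8, ID6 and NUL. The ranges of LAC and REG overlapped, as did those of all neighbours between REG and ID6, and only NUL lay apart from its neighbour. The lowest parous liver, ID6_209, stood 1.31 times above the highest nulliparous liver, NUL_221. Their exact Poisson 95% intervals, which cover counting error only, were 1.20 to 1.79 CPM and 0.886 to 1.42 CPM and overlapped.

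Separation of all 23 parous livers from all 4 nulliparous ones was rare. Of the 16428 genes tested, 8 (0.0487%) had every parous library above every NUL library, and Vtcn1 and Cyp2a4 are 2 of them. Since the genes were chosen for this pattern, nothing further is read from that share. The other 6 were Rdh16f2 (a retinol dehydrogenase family gene), Lpl (lipoprotein lipase, which releases fatty acids from circulating fat), Neb (nebulin, a thin filament protein of muscle), Bid (a trigger of cell death of the BCL2 family), Hexa (a lysosomal enzyme) and Setd3 (an actin methyltransferase). Another 4 genes (0.0243%) had every parous library below every NUL library, namely Bin2, Npnt, Pcp4l1 and the unnamed model Gm48796. Mean levels moved from 15.1 CPM in NUL to 52.4 CPM over the parous libraries for Lpl, and from 24.1 to 10.0 CPM for Bin2.

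From lactation to the second day after weaning Vtcn1 differed by -0.75 on the log2 scale (SE 0.25), and all 3 ID2 livers lay below all 3 LAC livers. The share of all genes that separate in this way is not given here, and edgeR called 16.1% of all genes in this step. The next 3 steps between neighbouring stages, up to ID8, had differences of -0.07, -0.13 and 0.08 (SE 0.20 to 0.24). REG differed from ID8 by 0.24 (SE 0.24). Livers of all these stages took part in the choice of the 3 genes, so their steps are a description, with no test. Without LAC_200, the liver of highest Vtcn1, the step from LAC to ID2 was -0.56, and with a clock covariate it was -0.51.

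Epithelia that express Vtcn1 were followed through marker genes. Of 6 milk protein genes that mark the mammary gland, 5 (Csn1s1, Csn2, Csn3, Wap and Lalba) were listed at 0 in all 27 libraries, and the summed level never exceeded 0.0144 CPM. The 7 bile duct markers summed to 34.0 to 47.2 CPM in NUL, 21.4 to 28 CPM in LAC and 25.9 to 42.7 CPM in REG. The part of bile duct cells in the Vtcn1 levels was not tested.

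The stretch before the Vtcn1 start is shown because it holds the only match to the regulatory motifs searched in its promoter. It is chr3:100825209-100825458, plus strand, from RefSeq on GRCm38.p6, with the match to TGACCT, a core bound by many nuclear receptors, in capitals as its reverse complement:
Vtcn1: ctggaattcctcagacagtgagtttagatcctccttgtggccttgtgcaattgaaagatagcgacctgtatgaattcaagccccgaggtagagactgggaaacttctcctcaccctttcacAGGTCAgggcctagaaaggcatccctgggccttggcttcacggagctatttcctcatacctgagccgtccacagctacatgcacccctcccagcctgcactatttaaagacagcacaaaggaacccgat
The search covered both strands from 250 bases before to 50 bases after the start. The match begins 129 bases before the start. The same motif has 1 match each in Cyp2a4 and its copy Cyp2a5, beginning 30 and 29 bases after their starts, and none in Lrp11, and 16.3% of 32851 mouse promoters of the same length hold such a match. No match was found in Vtcn1, Cyp2a4 or Lrp11 to TTANGTAA (core of the site bound by DBP), TTCNNNGAA (the STAT element) or CACGTG (the E-box), which 2.32%, 8.3% and 7.15% of promoters hold. No match overlapped another, and a match is only a description of letters.

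Other members of the B7 family and their receptors and partners were called by edgeR in LAC and ID6 only. Of 12 tested, 3 (25%) were called against NUL in at least 1 stage, and 16.3% of all genes were. The 3 became 1 without LAC_240 and with limma at either pseudocount, and 5 with DESeq2. By stage, 11.2% of all genes were called in LAC, 3.24% in ID2, 4.25% in ID4, 1.08% in ID6, 0.499% in ID8 and 0.0852% in REG. Cd276, encoding the related protein B7-H3, was higher in LAC (6.40 ± 0.865 against 3.72 ± 0.481 CPM, log2 difference 0.78, edgeR adjusted p = 0.0193). Vsir, encoding the inhibitory protein VISTA, fell by 0.40 in LAC on the log2 scale (edgeR adjusted p = 0.0214). Vsig4, an inhibitory receptor of liver macrophages, fell by 0.67 in LAC (edgeR adjusted p = 0.00128) and was higher by 0.48 in ID6 (edgeR adjusted p = 0.0216). The summed macrophage markers include Vsig4 itself, so the sum and Vsig4 move together in part by construction. The sum was 354 to 457 CPM in NUL, at most 341 CPM in LAC and 487 to 776 CPM in ID6. The part of macrophages in the Vsig4 levels was not tested. In ID2, ID4, ID8 and REG no gene of the list was called by edgeR, with 1, 2, 1 and 0 at an unadjusted p under 0.05 and 0, 1, 0 and 0 called by DESeq2. In REG its median log2 difference was 0.02 against 0.00 over all genes.

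Cyp2a4 was about as high 4 weeks after weaning as 2 days after it, and every parous liver exceeded every nulliparous one. The gene (ENSMUSG00000074254) lies on chromosome 7, 26307169 to 26315088, plus strand, in GRCm38, with 1 annotated transcript of 1738 bases. NUL livers had 426, 545, 621 and 756 CPM. LAC livers had 1412, 1423 and 1506 CPM, a narrow range that lay above all of ID6, ID8 and REG. ID2 livers spread widely, at 967, 1140 and 1608 CPM, and ID4 livers had 991, 1078, 1122 and 1503 CPM. ID6 livers ran from 1058 to 1255 CPM (median 1180), and ID8 livers had 1051, 1263 and 1367 CPM. REG livers had 845, 1148, 1176 and 1386 CPM. The lowest of these, REG_234, was 1.12 times the highest nulliparous liver, the narrowest gap of any stage.

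Mean Cyp2a4 was 587 ± 138 CPM in NUL (SD, n = 4), 1447 ± 51.4 CPM in LAC (SD, n = 3) and 1139 ± 223 CPM in REG (SD, n = 4). The ratio to NUL was 2.47 in LAC and between 1.94 and 2.11 at all later stages. The fitted log2 differences from NUL were 1.30 (SE 0.17) in LAC, 1.08 (SE 0.17) in ID2 and 0.96 (SE 0.16) in REG. By mean the order was LAC, ID2, ID8, ID4, ID6, REG and NUL, and of these neighbours only REG and NUL did not overlap. The step from LAC to ID2 was -0.22 (SE 0.19), and the next 3 steps, up to ID8, lay between -0.08 and 0.07 (SE 0.15 to 0.17). REG differed from ID8 by -0.11 (SE 0.17). With the counts of its close copy Cyp2a5 added, the step from LAC to ID2 was 0.14, of the opposite sign.

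Cyp2a4 has a close copy, Cyp2a5, whose product hydroxylates coumarin and nicotine. Cyp2a5 (ENSMUSG00000005547) lies on the same chromosome at 26835305 to 26843548, plus strand. Both coding sequences have 1482 bases and differ at 23 of them, an identity of 98.4%. Of all 100-base windows of the Cyp2a4 coding sequence, 13.2% occur whole in Cyp2a5. The estimated counts of both genes were fractional in all 27 libraries, so reads were divided between genes and the level of each depends on that division. A stretch of coding exon 2, bases 193 to 312 of the coding sequence, shows how few bases separate them (GENCODE, GRCm38, plus strand, chr7:26307662-26307781 and chr7:26835807-26835926; capitals mark the 4 differing bases):
Cyp2a4: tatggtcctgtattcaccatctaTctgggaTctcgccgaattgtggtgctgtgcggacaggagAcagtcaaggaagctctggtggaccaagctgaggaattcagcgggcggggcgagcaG
Cyp2a5: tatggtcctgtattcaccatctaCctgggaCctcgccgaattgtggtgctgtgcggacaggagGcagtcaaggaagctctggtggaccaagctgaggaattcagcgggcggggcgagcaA
Upstream of the genes the likeness is as close. The stretches below (RefSeq, GRCm38.p6, plus strand, chr7:26306943-26307157 and chr7:26835089-26835303) differ at 4 positions, in capitals, and are 98.1% identical:
Cyp2a4: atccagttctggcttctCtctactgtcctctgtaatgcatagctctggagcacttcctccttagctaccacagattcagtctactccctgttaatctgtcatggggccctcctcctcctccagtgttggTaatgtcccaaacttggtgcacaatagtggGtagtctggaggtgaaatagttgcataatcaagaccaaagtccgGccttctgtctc
Cyp2a5: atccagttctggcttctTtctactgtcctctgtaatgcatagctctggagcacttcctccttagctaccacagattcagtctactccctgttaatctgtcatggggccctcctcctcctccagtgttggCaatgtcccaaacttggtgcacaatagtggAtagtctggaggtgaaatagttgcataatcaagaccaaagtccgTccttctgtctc
The reference is of another strain than BALB/c, whose own bases at these positions were not analysed here.

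Cyp2a5 did not separate parous from nulliparous livers. It had 240, 343, 516 and 781 CPM in the 4 NUL livers, and its range in every parous stage overlapped that of NUL. In LAC, where Cyp2a4 was highest, Cyp2a5 had 380, 450 and 495 CPM. Its mean was 470 ± 237 CPM in NUL, 442 ± 57.8 CPM in LAC (n = 3), 839 ± 225 CPM in ID2 (n = 3) and 573 ± 147 CPM in REG (n = 4). None of the 6 differences of Cyp2a5 from NUL passed the test. The largest, 0.84 on the log2 scale in ID2 (SE 0.34), had an edgeR adjusted p of 0.194, and that of REG was 0.29 (SE 0.31, edgeR adjusted p = 0.969). Neither did the step from LAC to ID2, at 0.93 (SE 0.36, edgeR adjusted p = 0.0903), a step that called 16.1% of all genes. These were 2648 genes, which became 1389 without LAC_213 and 1249 with the number range as a covariate. The difference between the responses of the copies was not tested.

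The share of the counts of both genes that was assigned to Cyp2a4 was 41.1%, 59.5%, 64.0% and 64.4% in the NUL livers. It was 74.2%, 77.0% and 78.8% in LAC and 59.4%, 59.6% and 59.9% in ID2. ID6 livers ranged from 65.9% to 77.9%, all above NUL, and REG livers from 62.2% to 69.7%, across the NUL range. NUL_220, the lowest in this share, had the highest Cyp2a5 level of the NUL livers. The sum of both genes does not depend on how reads were divided between them. It was 666, 963, 1272 and 1327 CPM in NUL, and 22 of 23 parous livers lay above that range. The exception was REG_234 at 1248 CPM. The ratio of the summed level to NUL was 1.79 in LAC, 1.97 in ID2 and 1.62 in REG, so the summed difference was smaller than that of Cyp2a4 alone.

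**Figure D2:**
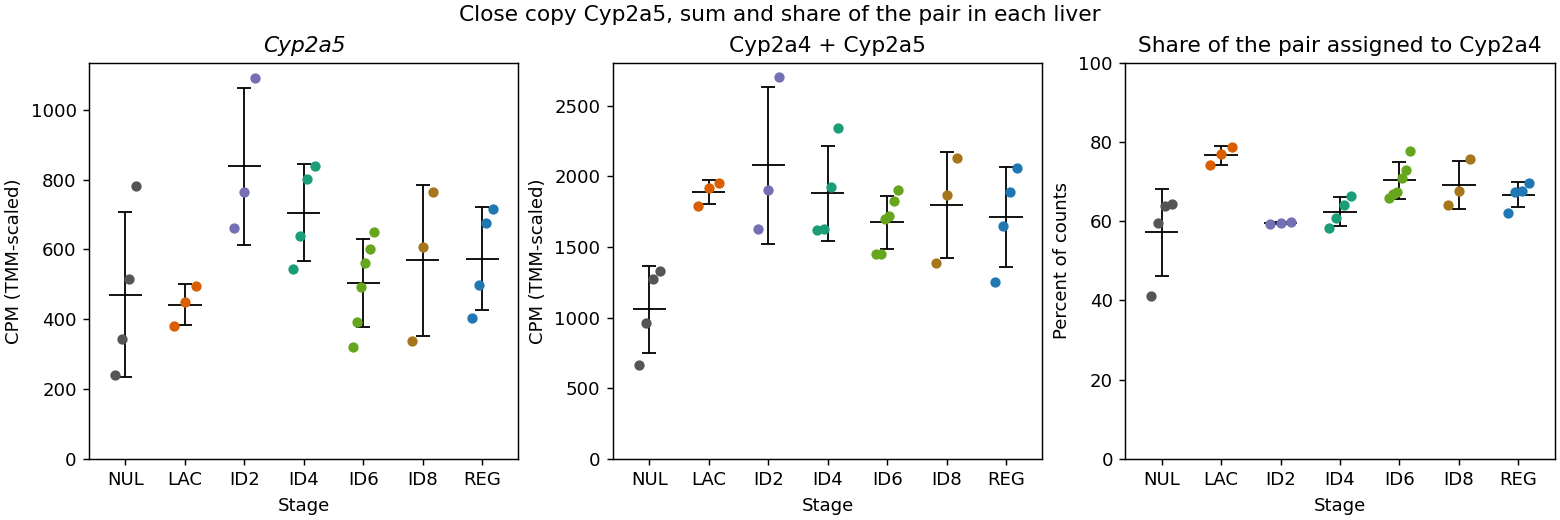
CPM of Cyp2a5, CPM of Cyp2a4 and Cyp2a5 summed, and the percent of the counts of both genes assigned to Cyp2a4, in each liver (points) by stage, with mean and SD (black lines). Cyp2a5 overlaps NUL at every stage, while 22 of 23 parous livers lie above NUL for the sum.

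An antisense gene, Gm42375, overlaps the first 118 bases of Cyp2a4. Its mean ran from 1.19 CPM in LAC to 2.33 CPM in ID2, little beside Cyp2a4. The use of strand in counting is not given in the sources used here.

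The time of day at which livers were taken is not given in the sources used here, and the clock output gene Dbp differed between stages. Dbp had 0.594 to 2.69 CPM in NUL and 12.1, 15.2 and 42.8 CPM in ID2, a log2 difference of 3.80 (SE 0.84, edgeR adjusted p = 0.0149). The liver of highest Dbp, ID2_39, was also that of highest Cyp2a4 and Cyp2a5. Clock genes as a list gave 6 calls among 14 tested (42.9%), all of them in ID2, with Tef also in ID4, where 16.3% of all genes were called at any stage and 3.24% in ID2. The 6 became 1 without ID2_39 or NUL_221, 2 without NUL_220, 3 without NUL_227, and 0 with the number range as a covariate or among animals numbered 200 and over. All 6 ID6 livers, with Dbp of 0.865 to 2.28 CPM, and 2 of 3 LAC livers, with 0.825 and 1.67 CPM, lay within the Dbp range of NUL and had Cyp2a4 above NUL. The other LAC liver had 6.65 CPM of Dbp. REG livers had 1.81, 2.31, 5.48 and 11.7 CPM of Dbp and ID8 livers 2.78, 6.7 and 14.2 CPM. Within REG, ID8 and NUL the livers had the same order by Cyp2a4 as by Dbp, and within LAC, ID2, ID4 and ID6 they did not. The part of Dbp in the Cyp2a4 levels was not tested. With the first component of 14 clock genes as a covariate (58.9% of their variance), the Cyp2a4 difference from NUL was 1.21 in LAC, 0.40 in ID2, 1.10 in ID6, 0.69 in ID8 and 0.74 in REG. In the same fit the Cyp2a4 difference of ID2 from LAC was -0.81, against -0.22 without the covariate.

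**Figure D3:**
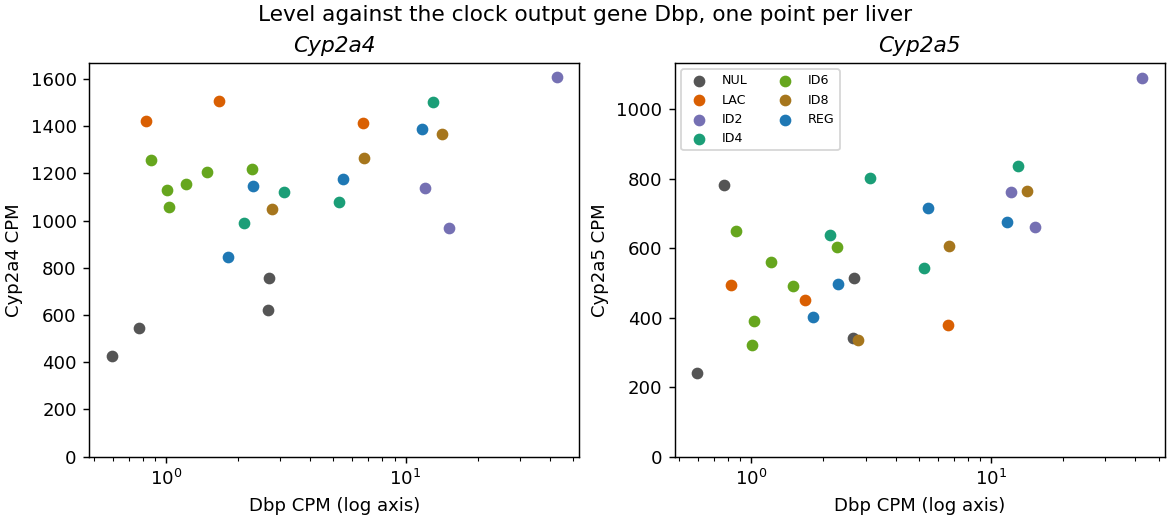
CPM of Cyp2a4 and of Cyp2a5 against CPM of Dbp on a log axis, 1 point per liver, coloured by stage. All 6 ID6 livers and 2 of 3 LAC livers lie above NUL for Cyp2a4 within the Dbp range of NUL, and ID2_39 is highest for all 3 genes.

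Other P450 genes of the Cyp2a cluster were called by edgeR in LAC, ID2 or ID4. Of 9 other cluster genes tested, 5 (55.6%) were called against NUL in at least 1 stage, against 16.3% of all genes. The 5 became 3 without NUL_226 or NUL_227 and with the number range or clock covariate, and 2 among animals numbered 200 and over. Cyp2f2, an enzyme of airway and liver that activates naphthalene, was higher in LAC by 0.67 on the log2 scale (650 ± 94.1 to 1040 ± 67.4 CPM, edgeR adjusted p = 0.000553). Cyp2b13, a female-biased P450, fell by 1.46 in LAC (edgeR adjusted p = 0.00129). Its neighbour Cyp2b9, also female-biased, was higher by 0.47 in ID2 (edgeR adjusted p = 0.0203). Cyp2g1, best known from olfactory tissue, was higher by 1.09 in ID2 (edgeR adjusted p = 0.0263), and Cyp2a12 by 0.40 in ID4 (edgeR adjusted p = 0.00951). DESeq2 called Cyp2a12, Cyp2b9 and Cyp2g1 in both ID2 and ID4. In ID6, ID8 and REG edgeR called none of the 9, with 3, 1 and 2 at an unadjusted p under 0.05, and DESeq2 called 0, 0 and 1 (Cyp2g1 in REG).

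Within 250 kb of the start of Cyp2a4, 5 of 14 other genes were tested and 3 were called in some stage, where 16.3% of all genes were. They were Cyp2b13, Cyp2b9 and the pseudogene Rnf170-ps, which was higher by 1.74 in ID4 (edgeR adjusted p = 0.0147). The log2 differences of Rnf170-ps from NUL at the other stages were 1.13 in LAC, 1.14 in ID2, 1.40 in ID6, 1.21 in ID8 and 1.12 in REG, with edgeR adjusted p-values of 0.0768 (ID6) to 0.491 (REG). Around Vtcn1, 4 of 12 neighbours were tested. EdgeR and DESeq2 called none at any stage, with 2 at an unadjusted p under 0.05 in LAC, 1 in ID2 and 0 later. The tested genes were Man1a2, Ttf2, Trim45 and Cd101.

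Female-biased liver genes other than Cyp2a4 were called mostly as higher, in LAC, ID2 and ID4. Of 19 tested, 9 (47.4%) were called in at least 1 stage, against 16.3% of all genes (11.2% in LAC, 3.24% in ID2 and 4.25% in ID4). By edgeR these were 3 higher and 1 lower in LAC, 4 higher in ID2, 5 higher and 1 lower in ID4, 1 lower in ID6 and none in ID8 or REG. In ID6, ID8 and REG 4, 5 and 3 had an unadjusted p under 0.05. DESeq2 called 3 in ID6 (Cyp4a14, Cyp3a41a and Cyp3a41b), 2 in ID8 (Cyp3a41a and Cyp3a41b) and 0 in REG. In ID6 the fitted edgeR differences of Cyp3a41a and Cyp3a41b were 0.76 and 0.75, above NUL (edgeR adjusted p = 0.108 and 0.14). Cyp3a41a was higher by 1.73 in LAC (edgeR adjusted p = 0.000173), 1.46 in ID2 (0.00278) and 1.71 in ID4 (0.000299). Its counts, like those of its copy Cyp3a41b, were fractional in 26 libraries. Cyp3a16 was higher by 1.13 in ID4 (edgeR adjusted p = 0.000555) and Cyp3a44 by 0.60 (edgeR adjusted p = 0.00239). Prlr, the prolactin receptor, was higher in ID2 (478 ± 53.0 against 350 ± 40.1 CPM, log2 difference 0.45, edgeR adjusted p = 0.0101) and in ID4 (0.37, edgeR adjusted p = 0.0212). Sult3a1, a sulfotransferase, was higher by 2.80 in LAC (edgeR adjusted p = 0.0342) with ranges that overlapped. Cyp4a14, a fatty acid hydroxylase, fell by 2.57 in ID4 (edgeR adjusted p = 0.0408) and by 3.15 in ID6 (edgeR adjusted p = 0.0117). The list's median log2 difference was 0.47 in ID2 and 0.20 in REG, against -0.02 and 0.00 over all genes.

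Male-biased genes gave 4 calls among 12 tested (33.3%), against 16.3% of all genes. Cyp2d9 fell by 1.21 in ID2 (edgeR adjusted p = 0.000518) and by 0.62 in ID4 (edgeR adjusted p = 0.0299). Cyp2u1 fell in LAC, ID2 and ID4, by 0.83, 0.78 and 0.72. Gstp1, a glutathione transferase, was higher by 0.81 in LAC (edgeR adjusted p = 0.000172) and fell by 0.47 in ID2 (edgeR adjusted p = 0.0471), and the pheromone carrier Mup20 was higher by 0.83 in LAC (edgeR adjusted p = 0.00864). In ID6, ID8 and REG edgeR called none, with 1, 1 and 0 at an unadjusted p under 0.05, and DESeq2 called 0, 1 and 0.

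Among 18 regulators of Cyp2a and sex-biased genes, 5 (27.8%) were called, against 16.3% of all genes. The 5 became 3 with the number range as a covariate or among animals numbered 200 and over, and 9 with DESeq2. Stat5a, which carries growth hormone and prolactin signals, fell by 0.79 in LAC (edgeR adjusted p = 0.000419) and by 0.51 in ID2 (edgeR adjusted p = 0.0362). Stat5b, its close copy and partner in that signal, fell by 0.40 in LAC (edgeR adjusted p = 0.0169) and was higher by 0.36 in ID4 (edgeR adjusted p = 0.0363). The counts of both were fractional in all 27 libraries. Nfe2l2, a regulator of antioxidant genes, was higher by 0.38 in LAC (edgeR adjusted p = 0.0253). Tef, a relative of Dbp, was higher by 1.28 in ID2 (edgeR adjusted p = 0.00263) and by 0.77 in ID4 (edgeR adjusted p = 0.0397). In ID6, ID8 and REG edgeR called no regulator, with 2, 6 and 5 at an unadjusted p under 0.05, and DESeq2 called 0, 2 (Cebpa and Tef) and 0.

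**Figure D4:**
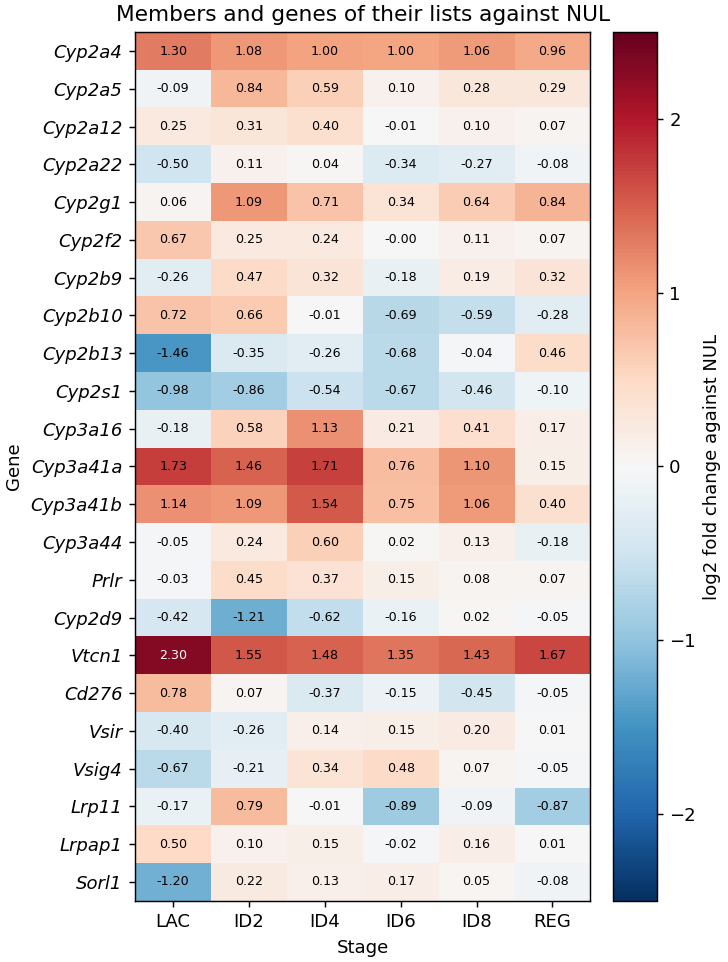
Fitted log2 fold change against NUL (colour and printed value) at the 6 later stages. The genes are Vtcn1, Cyp2a4, Lrp11, the tested genes of the Cyp2a cluster and a selection from the other lists. Genes named in the text but left out include Cyp4a14 (-2.57 in ID4, -3.15 in ID6), Sult3a1, Cyp2u1, Gstp1, Mup20, Stat5a, Stat5b, Tef, Mylip and Dab2. Vtcn1 and Cyp2a4 keep values of 0.96 or more at every stage, and Lrp11 is at -0.89 in ID6 and -0.87 in REG.

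Lrp11 did not share this pattern, and its description as lastingly changed holds in part only. It was higher than NUL at day 2 after weaning, lower at day 6 and at 4 weeks, and overlapped the nulliparous range at the other stages. The gene (ENSMUSG00000019796) lies on chromosome 10, 7589800 to 7625483, plus strand, in GRCm38, with 5 annotated transcripts of 652 to 3386 bases. NUL livers had 2.10, 2.33, 2.77 and 2.86 CPM and LAC livers 1.99, 2.23 and 2.49 CPM, ranges that overlapped. All 3 ID2 livers were higher, at 4.16, 4.25 and 4.69 CPM, as in 9.51% of all genes. ID4 livers again overlapped NUL, with 2.16, 2.35, 2.53 and 2.96 CPM. ID6 livers were the lowest, from 1.12 to 1.85 CPM with a median of 1.28 CPM. ID8 livers stood apart from their neighbours in time with 1.93, 2.17 and 2.97 CPM. REG livers were low and close to one another, at 1.30, 1.32, 1.43 and 1.45 CPM.

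Mean Lrp11 was 2.52 ± 0.362 CPM in NUL (SD, n = 4), 4.37 ± 0.285 CPM in ID2 (SD, n = 3), 1.36 ± 0.260 CPM in ID6 (SD, n = 6) and 1.37 ± 0.0756 CPM in REG (SD, n = 4). The ratio to NUL was 1.74 in ID2, 0.539 in ID6 and 0.546 in REG. The fitted log2 difference from NUL was 0.79 (SE 0.17) in ID2, -0.89 (SE 0.15) in ID6, -0.09 (SE 0.18) in ID8 and -0.87 (SE 0.17) in REG. All 10 livers of ID6 and REG lay below all 4 of NUL, a pattern found for 31 genes (0.189%) of those tested and one that the choice of the gene used. The order of the means was ID2, NUL, ID4, ID8, LAC, REG and ID6. ID2 lay apart from NUL and LAC apart from REG, and the other neighbours overlapped.

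Between neighbouring stages Lrp11 was higher at day 2 after weaning than in lactation and lower at day 4 than at day 2. The difference of ID2 from LAC was 0.96 on the log2 scale (SE 0.19), and that of ID4 from ID2 was -0.80 (SE 0.17). Without ID2_39 the latter was -0.75, with the clock covariate it was -0.89, and among animals numbered 200 and over, where ID2 keeps 1 liver, these steps were 0.92 and -0.80. The difference of ID6 from ID4 was -0.88 (SE 0.15) and that of ID8 from ID6 was 0.80 (SE 0.16). The latter was 0.73 with the range of the animal numbers as a covariate and 0.59 without ID8_98b. REG differed from ID8 by -0.78 (SE 0.18), also without overlap. In each of the 4 steps up to ID8 the livers of the later stage did not overlap those of the earlier one. The share of all genes that separate in this way is not given here, so nothing is read from it. The step from LAC to ID2 called 16.1% of all genes. The summed level of 5 erythroid markers moved too, at 335 to 712 CPM in NUL, 411 to 1190 CPM in ID2, 53.1 to 264 CPM in ID6, 19.9 to 35.0 CPM in ID8 and 451 to 639 CPM in REG. ID6 and ID8 thus lay below NUL, while REG, where Lrp11 was also low, and ID2 overlapped it. Macrophage markers were above NUL in ID6 and overlapped it in REG. The part of these markers in the Lrp11 values was not tested.

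The length that the deposited tables give for Lrp11, an average over its transcripts, varied from 2248 bases in ID6_216 to 3386 bases, the longest transcript, in all 4 ID4 livers among others. On the TPM scale, which divides by that length, NUL livers ranged from 0.88 to 1.19, ID6 livers from 0.44 to 0.80 and REG livers from 0.54 to 0.63, so both groups stayed below NUL.

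Among other genes of the Lrp group and their partners, 6 of 17 tested (35.3%) were called against NUL in at least 1 stage, against 16.3% of all genes, and 4 of them are described. The 6 became 3 without LAC_213 or NUL_226. In LAC, Lrpap1, a chaperone of these receptors, was higher by 0.50 (edgeR adjusted p = 0.00292). The sorting receptor Sorl1 fell by 1.20 (edgeR adjusted p = 0.0268), Mylip, a ubiquitin ligase, by 0.54 (edgeR adjusted p = 0.0116) and the endocytic adaptor Dab2 by 0.52 (edgeR adjusted p = 0.0225). The ranges of Sorl1 and Mylip overlapped those of NUL. Stellate, sinusoidal endothelial and macrophage markers also lay lower in LAC, and their part in these falls was not tested. In ID2, where Lrp11 was highest, and in ID8 and REG edgeR called no gene of this list, with 1, 0 and 0 at an unadjusted p under 0.05, and DESeq2 called 0 in each. Around Lrp11, 9 of 16 genes within 250 kb were tested and 2 were called in some stage. Pcmt1, a protein repair methyltransferase, was higher in LAC by 0.31 (edgeR adjusted p = 0.0316), and B430219N15Rik fell by 2.00 in LAC (edgeR adjusted p = 0.0257).

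Likeness of profile was described by Pearson's r of log2(CPM + 0.5) over the 27 libraries. It was taken among 10827 genes with a proper symbol above a low floor, which the scarce Vtcn1 also passed. Libraries of a stage share that stage, so r is a description only. The profiles most like Vtcn1 were those of Plscr2 (a membrane lipid scramblase, r = 0.732), Cyp2a4 (0.723), Ttc39c (0.716), Rdh16f2 (0.715) and Neb (0.715), and the most opposed were Bin2 (-0.789), Coro7 (-0.725) and Pcp4l1 (-0.688). Those most like Cyp2a4 were Rdh16f2 (0.798), Ifi27l2b (0.753), Lpl (0.735), Tsc22d4 (0.728) and Vtcn1, with Myo15b (-0.844), Npnt (-0.832) and Wdr90 (-0.765) most opposed. After stage means were removed, r with Vtcn1 ran from -0.255 (Cyp2a4) to 0.473 (Neb) for its like profiles. For its opposed profiles it ran from -0.298 (Coro7) to 0.0196 (Pcp4l1). With Cyp2a4 it ran from -0.255 (Vtcn1) to 0.509 (Tsc22d4) for like and from -0.673 (Wdr90) to -0.517 (Npnt) for opposed profiles. Between Cyp2a4 and Cyp2a5, r was 0.448 over all libraries and 0.646 after stage means were removed.

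Lrp11 was unlike both, with r of -0.0764 to Vtcn1 and -0.142 to Cyp2a4. Its closest profiles were Tmem86b (lysoplasmalogen hydrolysis, r = 0.857), Reep6 (0.83), Gnpda1 (amino sugar breakdown, 0.824), Paqr3 (0.818) and Suox (sulfite oxidase, 0.789). Tmem86b averaged 74.6 CPM in NUL, 109 CPM in ID2, 54.7 CPM in ID6 and 67.6 CPM in REG. The most opposed were Rbbp4 (-0.834), Fbxl5 (-0.832) and Mgat2 (-0.793). After stage means were removed, r with Lrp11 ran from 0.238 (Suox) to 0.615 (Reep6) for its closest profiles. For the opposed it ran from -0.739 (Rbbp4) to -0.484 (Mgat2).

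Within the 20 animals numbered 200 and over, mean log2(CPM + 0.5) was compared between the 16 parous livers and NUL. The parous mean was higher by 1.20 for Vtcn1 and 1.05 for Cyp2a4, against 1.16 and 1.07 over all. The added 0.5 shrinks differences of scarce genes such as Vtcn1 and Lrp11, so these values are not on the scale of the fitted ones. Sequencing was done in 2 runs for 16 libraries and in 1 run for 11. Within the 2-run libraries these differences were 1.01 and 1.07 (13 parous, 3 NUL), and within the 1-run libraries 1.48 and 1.10 (10 parous, 1 NUL). For Lrp11, on the same scale, ID6 differed from NUL by -0.72 within 2-run libraries and -0.72 within 1-run libraries (4 and 2 ID6 livers). REG differed from NUL by -0.66 and -0.83 (1 and 3 REG livers).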

How the data were processed

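Whole-liver RNA of 27 BALB/c mice was sequenced. Per the labels' protocols, Trizol served for RNA extraction and NEBNext Ultra for library preparation. The submitters' processing notes name STAR 2.6.1a, RSEM 1.3.1 and the build mm10 (GRCm38), with no settings. The deposited expected counts are the authors' RSEM estimates per gene, per the file headers, and the deposited TPM values are the authors' length-scaled form of them. Reads shared between genes are divided by estimation, which affects close copies. Groups and replicate names came from the titles. Identifiers were matched to GENCODE mouse release 21 (51633 of 51826 found).

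Expected counts were rounded for edgeR 4.0.16 under R 4.3.3 (filterByExpr, TMM, 1 quasi-likelihood fit of all 27 libraries and 7 groups, two-sided tests). A call is a p under 0.05 after Benjamini-Hochberg adjustment over the 16428 genes of each comparison. The biological coefficient of variation was 0.19. CPM values use TMM-adjusted library totals and are given as mean ± SD, and differences are log2. No pair of replicates was within sampling noise (smallest chi-square per gene 42.78). Totals were 41120650 to 75664540 counts. DESeq2 1.42.0, limma 3.58.1 on log2(TPM + 1) and log2(TPM + 0.1), other filters, scalings and covariates, and leaving out each library were tried as alternatives, and the fit was tested on simulated data. The genes, lists and the naming rule were chosen with earlier results of these data known. The rule names list genes that were called against NUL at some stage with no overlap of CPM, Cyp2a5, the 5 most like and 3 most opposed profiles of each gene and genes within 250 kb. Called list genes with overlapping ranges (Sorl1, Mylip, Sult3a1) were named after their values were seen, as were called neighbours and other genes of full separation. Tests planned for the 3 genes among the parous stages are not given, since livers of all these stages took part in the choice. Results of some genes of the Lrp list are not reported here.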

Additional observations from a re-analysis of the deposited data

How the results depend on the processing

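No paired analysis was possible because no animal number occurs in more than 1 group. Beside the fits without 1 library, 184 recomputed differences of a gene from NUL moved by less than the spread between replicates and 17 by more. Steps of the 3 genes are values without a test. With the clock covariate Vtcn1 became -0.51 (LAC to ID2), -0.26 (ID2 to ID4) and 0.29 (ID6 to ID8), and Cyp2a4 became -0.81, 0.37, 0.33 and -0.41 over the 4 steps. In the same fit differences from NUL moved to 0.40 (ID2) and 0.69 (ID8) for Cyp2a4, 1.86 (ID2) for Vtcn1 and 0.93 (ID2) for Lrp11. With the number range the Cyp2a4 step from ID6 to ID8 was -0.18, and at 200 and over the Vtcn1 step from ID2 to ID4 was 0.20. The Lrp11 step from ID4 to ID6 was -0.68 with a length offset and -0.24 and -0.50 with limma on log2(TPM + 1) and log2(TPM + 0.1), where that from ID6 to ID8 was 0.22 and 0.46. With a pseudocount of 1 those from LAC to ID2 and ID2 to ID4 were 0.55 and -0.51. The causes were not tested. Summing Cyp2a4 and Cyp2a5 gave 0.84 in LAC, 0.66 in ID6 and 0.76 in ID8 against NUL, and 0.14 from LAC to ID2. On log2(TPM + 1), which by construction shrinks low genes, Vtcn1 against NUL was 0.98, 0.58, 0.54, 0.53, 0.51 and 0.68 from LAC to REG, its step from LAC to ID2 was -0.40, and Lrp11 was 0.43 (ID2), -0.32 (ID6) and -0.37 (REG); with 0.1 its ID6 value was -0.65.

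In the step from LAC to ID2, 2648 genes were called, and 1249 with the number range, 1483 with the clock covariate, 395 at 200 and over, where ID2 keeps 1 liver, assumed to vary like the other groups, and 1127 at an adjusted p under 0.01. Leaving out 1 library gave 1389 (without LAC_213) to 2716. It gave 1 (without LAC_240) to 4 called genes for the B7 family, 3 (without NUL_226 or NUL_227) to 7 for the Cyp2a cluster, 3 (without LAC_213 or NUL_226) to 6 for the Lrp group and 1 (without ID2_39 or NUL_221) to 6 for clock genes. Vtcn1 against NUL ranged from 1.36 to 1.84 in ID2, 1.29 to 1.77 in ID4 and 1.16 to 1.64 in ID6. List counts became: clock genes 3 with no filter or a length offset, 0 with the number range or at 200 and over, 1 with the clock covariate; Cyp2a cluster 3 with the number range or clock, 2 at 200 and over; regulators 3 with the number range or at 200 and over, 9 with DESeq2; B7 family 1 with limma at either pseudocount, 5 with DESeq2.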
